A study of Mus musculus with 2 samples.

Results

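Regenerating myonuclei past fusion is the name given here to nuclei selected for fibre genes and embryonic myosin message with little message of the genes that mark fusing cells. They were selected on measured values: a barcode with at least 2000 unique molecular identifiers (UMIs, each counting 1 captured RNA molecule) and at most 5% of UMIs from mitochondrial genes, in which Ttn, Neb, Trdn and Dmd together held at least 1% of UMIs and Myh3 at least 0.1%. Myog, Mymk and Mymx together were limited to 2 UMIs, and Ptprc, Pdgfra and Pax7 together to 1 UMI. In all, 2280 of 23616 nuclei met these limits. The AHRfl/fl library held 1329 of 16986, or 7.82% (95% Clopper-Pearson interval 7.42 to 8.24), and the AHRmKO library held 951 of 6630, or 14.3% (13.5 to 15.2).

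The nuclei came from the tibialis anterior, a fast muscle beside the shin, taken 5 days after the femoral artery had been ligated. The animals were male, 16 to 20 weeks old, and had chronic kidney disease. Both libraries carry the same strain entry, a cross of AHRtm3.1Bra/J mice, whose aryl hydrocarbon receptor gene Ahr is floxed, with Tg(ACTA1-cre/Esr1*)2Kesr/J mice, in which the skeletal actin promoter drives a Cre recombinase fused to a modified oestrogen receptor. Kidney disease and ligation are shared by both, so neither library is an uninjured control. The name AHRfl/fl gives the floxed genotype and AHRmKO a knockout in muscle, and when Cre was activated is not stated. Each group has 1 library and the number of animals behind it is not stated, so differences between libraries have no replicate check, carry no p-value, and intervals cover counting error only.

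After injury, satellite cells divide, leave the cell cycle under Myod1 and Myog, and fuse through Mymk and Mymx into new fibres. Nuclei of such fibres first transcribe embryonic and neonatal myosins (Myh3, Myh8), the foetal acetylcholine receptor subunit (Chrng) and the adhesion molecule Ncam1, and later switch to the adult fast myosins (Myh1, Myh4). Messages of fibres are abundant, and when fibres break they leave free RNA that enters droplets with no fibre nucleus.

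The makeup of free RNA and the depth differed between the libraries. The median nucleus of the set held 4573 UMIs from 2210 genes in the AHRfl/fl library and 3822 UMIs from 1870 genes in the other, with mitochondrial medians of 0.540% and 1.87%. Their summed UMIs came to 6566603 and 4346441. In barcodes of 200 to under 500 UMIs, which are mostly droplets without a nucleus, Myh3 stood at 2912 counts per 1000000 UMIs (CPM) in the AHRfl/fl library and 427 in the AHRmKO library. The first value lies above the selection limit of 0.1%, which is 1000 CPM, and the second below it. In the AHRfl/fl library the Myh3 limit could therefore be met through free RNA, and how many of its nuclei met it that way was not tested. Among leukocyte nuclei (2 or more Ptprc UMIs and under 1% fibre genes), 783 of 6803 (11.5%) reached the Myh3 limit in the AHRfl/fl library and 5 of 1782 (0.281%) in the other. Markers of other cells were present in both libraries. The 12 leukocyte markers summed to 1174 CPM in the set in the AHRfl/fl library and 264 in the other, against 6596 and 4534 in leukocyte nuclei, and none of them was at 0. The 9 fibroadipogenic markers summed to 636 and 238 CPM, the 7 satellite cell markers to 323 and 421, the 8 endothelial markers to 48.4 and 46.5, the 6 mural markers to 525 and 445, the 5 adipocyte markers to 75.2 and 43.5, the 5 erythroid markers to 169 and 395, the 5 Schwann cell markers to 17.4 and 21.4 and the 5 tendon and junction markers to 30.8 and 16.6. Of these lists, 2 adipocyte, 2 Schwann cell and 1 mural marker were at 0 in the AHRfl/fl library, and 1 adipocyte, 1 Schwann cell, 1 mural and 1 satellite cell marker in the other. Of the barcodes, 1 of the set and 30 of all nuclei occurred in both libraries. Leaving out nuclei with 3 or more UMIs of leukocyte, fibroadipogenic, endothelial or satellite cell markers kept 83 nuclei of the AHRfl/fl library and 557 of the other. The part of free RNA in the results below was not tested, except where a value with it subtracted is given. For that subtraction, the free share was estimated from the adult fast and giant scaffold lists in leukocyte nuclei. It came to 19.9% of UMIs in the AHRfl/fl library and 18.55% in the other. The same share was taken off every kind of nucleus. Leukocyte nuclei were limited to under 1% fibre genes, with Ttn and Neb in both the limit and the scaffold list, so the share can be too low. Counts that fell below 0 were set to 0, so the size of a ratio means little for a gene that reached 0 in 1 library. Mitochondrial, haemoglobin, ribosomal protein and predicted genes were left out of rankings of single genes, Gm42418 among them. By level alone, the 15 highest remaining genes of the set outside the rule are listed here. They were Malat1, Dclk1, Palld, Celf2, Dlg2, Ncam1, Cdh13, Runx1, Macf1, Msi2, Ryr1, Gse1, Mybpc1, Map4 and Camk1d.

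Myh3, encoding embryonic myosin heavy chain (GRCm38 chromosome 11, 67078300 to 67102291, plus strand), was the value that chose the nuclei, so its level is a description. It summed to 2116 CPM (95% Poisson interval 2081 to 2152) in the AHRfl/fl library and to 4191 CPM (4130 to 4252) in the AHRmKO library. Single nuclei held a median Myh3 share of 0.194% and 0.395%. Nuclei of the first library thus sat nearer the limit than those of the second. In the AHRfl/fl library, 144 nuclei (10.8%) lay just inside the limit, under 0.12%, and 155 fibre nuclei just outside it, at 0.08% or more. In the AHRmKO library these were 37 (3.89%) and 27. At the limit of 2 UMIs of Myog, Mymk and Mymx there were 482 and 270 nuclei, and 365 and 153 others had 3.

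**Figure D1:**
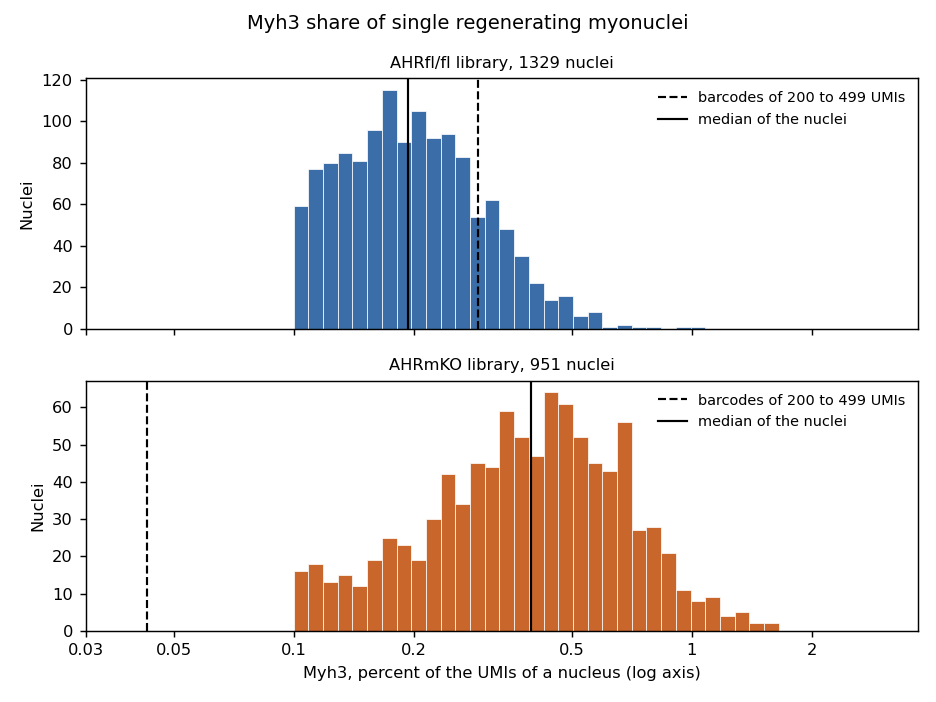
Number of regenerating myonuclei (vertical axis) by the share of their UMIs from Myh3 (horizontal log axis, percent), with the AHRfl/fl library above and the AHRmKO library below. The solid line is the median nucleus (0.194% and 0.395%) and the dashed line the level in barcodes of 200 to under 500 UMIs, which lies above that median in the first library and below the 0.1% limit in the second.

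Of the label's markers, Myh8 and Ncam1 played no part in the selection. Ncam1, an adhesion molecule of regenerating and denervated fibres, stood at 5566 and 4549 CPM in the AHRfl/fl and AHRmKO libraries, against 504 and 208 in leukocyte nuclei. After thinning each nucleus to 2000 UMIs, Ncam1 was detected in 99.1% and 99.3% of the set and in 35.1% and 31.3% of leukocyte nuclei (99.5% and 99.8%, and 48.1% and 51.1%, before thinning, at median depths of 4573 and 3822, and 3270 and 3824 UMIs). Myh8, encoding neonatal myosin heavy chain on the same stretch of chromosome 11 (67277124 to 67308634, plus strand), stood at 825 and 806 CPM against 94.4 and 7.86 in leukocyte nuclei. Both markers lay well above the leukocyte level in both libraries. The leukocyte group was limited to under 1% fibre genes, so a low level of fibre messages there follows in part from its choice. That limit left out 802 (10.5%) and 230 (11.4%) of the nuclei with 2 or more Ptprc UMIs. The words "past fusion" rest on the limit for Myog, Mymk and Mymx alone: 527 and 321 nuclei held 1 UMI of these genes, 482 and 270 held 2, and 320 and 360 held none. Myog, the transcription factor of terminal differentiation, stood at 80.3 CPM against 83.8 in leukocyte nuclei in the AHRfl/fl library, and at 60.05 against 10.0 in the other.

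The share of nuclei in the set was higher in the AHRmKO library under each of the 8 other selection settings tried. At a Myh3 limit of 0.5% it was 0.130% (22 nuclei) in the AHRfl/fl library against 4.77% (316 nuclei). When only nuclei past the fibre gene limit were counted, a denominator chosen after seeing the data, the shares were 28.9% and 32.6%. The size of the difference thus depended on the limit and the denominator. Fewer nuclei of this kind and more nuclei of other kinds in a library cannot be told apart from shares.

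For comparison, 753 and 830 fibre nuclei met every limit but held under 0.1% Myh3, and 984 and 353 nuclei met the other limits with 3 or more UMIs of Myog, Mymk and Mymx, here called fusing nuclei. The first group was not alike in the libraries: low-Myh3 nuclei of the AHRfl/fl library still held Ncam1 at 3208 CPM and Myh8 at 396, and those of the AHRmKO library held 1127 and 45.6. Differences from these groups are therefore given for each library, and a gene was counted only if it differed 2-fold or more the same way in both. Between the set and low-Myh3 nuclei, 121 of 9792 genes counted (1.24%) were higher in both libraries and 326 (3.33%) lower in both.

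**Figure D2:**
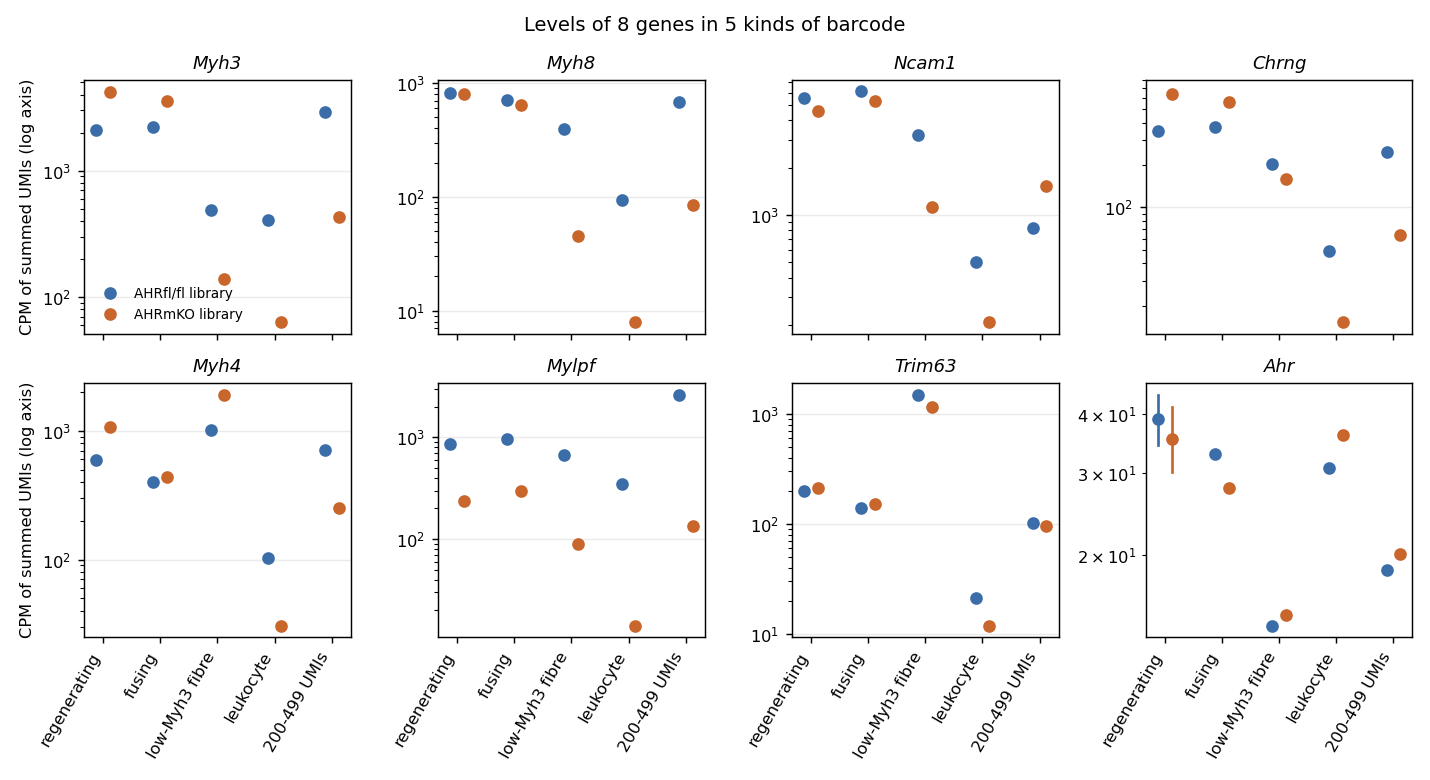
Levels of 8 genes (vertical log axis, CPM of summed UMIs) in 5 kinds of barcode (horizontal axis), with 1 point per library and vertical bars on the regenerating myonuclei for the 95% Poisson interval, which is mostly smaller than the point. Myh3 separates the regenerating from the low-Myh3 nuclei by the rule. Myh8, Ncam1 and Chrng lay higher in regenerating than in low-Myh3 fibre nuclei of both libraries, Trim63 lay lower, and Ahr in regenerating myonuclei did not differ between the libraries beyond counting error.

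The developmental contractile list holds embryonic and neonatal isoforms of the sarcomere and, without Myh3, counted 8 genes. Against low-Myh3 nuclei its median log2 ratio was 0.81 in the AHRfl/fl library and 3.06 in the other, and Myh8 alone passed 2-fold in both (log2 ratio 1.06 and 4.13). It was 1 of 8 genes, beside 1.24% of all genes higher. Actc1, cardiac actin, which is the actin of developing skeletal muscle, stood at 410 CPM in the set of both libraries, against 278 and 46.0 in low-Myh3 nuclei. Tnnt2, cardiac troponin T, stood at 489 and 841 CPM, Mybph, myosin binding protein H, at 404 and 823, Tnni1, slow troponin I, at 344 and 461, and Myl4, embryonic alkali light chain, at 254 and 304. Every gene of the list that was counted lay higher in the set than in low-Myh3 nuclei in both libraries. Against fusing nuclei the list's medians were -0.27 and -0.095, so it was not higher in the set than there. In barcodes of 200 to under 500 UMIs the list summed to 4646 CPM in the AHRfl/fl library and 610 in the other, against 2877 and 3907 in the set, so in the first library the near-empty barcodes held more of it than the set did. Between the libraries the list's median log2 ratio, AHRmKO over AHRfl/fl, was 0.57 (medians of the counting bounds 0.46 and 0.68), with 2 of 8 genes 2-fold or more higher in the AHRmKO library and none lower. The same 2 counts over all 11538 genes were 901 (7.81%) higher and 1600 (13.9%) lower, with a median of -0.04. The 2 genes were Mybph, at a log2 ratio of 1.03, and Myl6b, an alkali light chain, at 1.46 (1.04 to 1.99). Myh8 stood at -0.03, and Actc1 had the same CPM in both, over nuclei that differed in Myh3 share between the libraries. In nuclei of like Myh3 share both genes were lower in the AHRmKO library. At 0.1 to under 0.2% Myh3, Myh8 stood at 775 and 443 CPM and Actc1 at 375 and 251. At 0.2 to under 0.5%, Myh8 stood at 869 and 746 CPM and Actc1 at 438 and 361. With a Myh3 limit of 0.5% the list's median was -0.14, and with free RNA subtracted it was 1.19.

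Genes of the giant scaffold include those used for selection. Ttn, encoding the molecular spring titin, held 17583 CPM in the AHRfl/fl library and 49806 in the other, and Neb, the thin filament ruler nebulin, 6412 and 8944. The same held in low-Myh3 nuclei, with Ttn at 16693 and 46839 CPM. Of the 13 counted scaffold genes that the rule did not use, Myom3, an M-band protein, was higher in the set than in low-Myh3 nuclei of both libraries (662 against 325 CPM, and 593 against 59.5). Myot, the Z-disc protein myotilin, was lower (86.7 against 251, and 58.7 against 648). Of 13 genes these were 1 higher and 1 lower by 2-fold or more, beside 1.24% and 3.33% of all genes. Pdlim3, a Z-disc adaptor, was the gene of the list past 2-fold between libraries, at 1581 and 704 CPM. It was 1 of 13, beside 13.9% of all genes lower. The 16 sarcomere assembly and repair genes had medians of 0.43 and 0.998 against low-Myh3 nuclei, none past 2-fold in both. Flnc (305 and 641 CPM), Klhl40 (68.2 and 143) and Xirp1 (19.9 and 48.3), which act in filament repair and thin filament stability, were 2-fold or more higher in the AHRmKO library and none of the list was lower, beside 7.81% and 13.9% of all genes.

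Adult fast genes had median log2 ratios of -0.10 and -0.74 against low-Myh3 nuclei in the AHRfl/fl and AHRmKO libraries. The list summed to 8245 and 7556 CPM in the set and to 13166 and 2943 in barcodes of 200 to under 500 UMIs, so in the AHRfl/fl library it was not above the level of the near-empty barcodes. Myh4, the type IIb myosin (chromosome 11, 67238029 to 67260446), stood at 597 CPM in the AHRfl/fl library and 1077 in the other, a log2 ratio of 0.85 (0.79 to 0.91), against 1011 and 1914 in low-Myh3 nuclei. Myh1, the type IIx myosin, stood at 1046 and 1051 CPM against 606 and 1816. Myh2, the type IIa myosin, stood at 8.98 and 20.2 CPM, and Myh7, the slow myosin, had 2 and 1 UMIs. After thinning, 75.8% and 68.1% of nuclei of the set held Myh4, Myh1 or Myh2, against 34.6% and 12.6% of leukocyte nuclei (87.7% and 76.6%, and 52.5% and 22.6%, before thinning). Adult fast message was thus detected in more nuclei of the set than of the leukocyte group in both libraries. The leukocyte group was chosen for under 1% fibre genes, which sets part of this difference. Of the 16 genes of the adult fast list counted, Mybpc2, a fast myosin binding protein, Pvalb, the calcium buffer parvalbumin, and Mylk2, a light chain kinase, were lower in the set than in low-Myh3 nuclei of both libraries, with Mylk2 at 20.1 against 94.7 CPM and 45.1 against 640. These were 3 of 16, beside 3.33% of all genes. Between libraries the list's median log2 ratio was 0.09 over 15 genes, with Tnni2, Actn3, Mylk2 and Myh2 past 2-fold higher in the AHRmKO library and 1 gene lower, beside 7.81% and 13.9% of all genes. The list's median was 1.07 with free RNA subtracted and -0.36 at a Myh3 limit of 0.5%. Mylpf, a regulatory light chain, stood at 869 and 236 CPM, and it also differed this way in leukocyte nuclei (348 and 14.1) and in barcodes of 200 to under 500 UMIs (2625 and 134). With free RNA subtracted its log2 ratio was -0.73 in place of -1.88. Acta1, adult skeletal actin, stood at 944 and 703 CPM, and Ckm, muscle creatine kinase, at 169 and 196.

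Acetylcholine receptors of the developing fibre hold the gamma subunit Chrng, which the epsilon subunit Chrne replaces at adult synapses, beside the shared alpha subunit Chrna1. Chrng stood at 351 CPM (337 to 366) in the AHRfl/fl library and 643 (619 to 667) in the AHRmKO library, a log2 ratio of 0.87 (0.79 to 0.95), and Chrna1 at 383 and 256 CPM, a log2 ratio of -0.58 (-0.69 to -0.48). Chrne had 2 and 1 UMIs in all, under the limit of 3 that a count of 0 allows. The foetal subunit was thus detected in both libraries and the adult one was not above that limit. Chrng lay at 203 and 159 CPM in low-Myh3 nuclei. The 250 bases before the RefSeq start of these 3 genes are shown, since E-boxes in promoters of receptor subunits are known to be bound by Myod1 and Myog. Capitals mark the E-box letters CAGCTG, a palindrome and so the same on both strands, with no other motif searched.
Chrng, GRCm38.p6, chr1:87205561-87205810, plus strand: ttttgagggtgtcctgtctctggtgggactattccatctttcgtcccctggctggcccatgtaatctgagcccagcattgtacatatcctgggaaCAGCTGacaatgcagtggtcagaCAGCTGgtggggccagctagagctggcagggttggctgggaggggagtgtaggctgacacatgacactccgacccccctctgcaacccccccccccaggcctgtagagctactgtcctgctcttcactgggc
Chrna1, GRCm38.p6, chr2:73580339-73580588, minus strand: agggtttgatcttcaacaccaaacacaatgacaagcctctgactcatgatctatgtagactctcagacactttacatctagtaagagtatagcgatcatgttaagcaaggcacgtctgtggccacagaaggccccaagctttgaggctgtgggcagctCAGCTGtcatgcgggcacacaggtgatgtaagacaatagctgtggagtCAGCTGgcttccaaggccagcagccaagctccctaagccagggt
Chrne, GRCm38.p6, chr11:70619195-70619444, minus strand: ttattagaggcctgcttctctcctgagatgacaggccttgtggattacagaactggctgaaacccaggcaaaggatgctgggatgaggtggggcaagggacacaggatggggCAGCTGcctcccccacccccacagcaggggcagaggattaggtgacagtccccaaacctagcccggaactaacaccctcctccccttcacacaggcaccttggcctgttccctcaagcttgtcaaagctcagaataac
Chrng held these letters starting 155 and 132 bases before its start, Chrna1 92 and 44, and Chrne 138. Of 32851 RefSeq promoter windows of this length, 13% held CAGCTG at least once and 1.26% at least 2 times. The windows of Chrnb1, the receptor's beta subunit, and of Myh3 and Myh8 held none, and that of Myh4 held 1. A match is a description of the letters and not a site of binding.

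Against low-Myh3 nuclei, the synapse and denervation list had median log2 ratios of 0.38 and 0.85 over 18 genes. Runx1, a transcription factor switched on by denervation, stood at 4026 and 5270 CPM against 2747 and 3012. Musk, the agrin coreceptor kinase, stood at 373 and 248 CPM against 586 and 150. Hdac4, a repressor linking nerve activity to these genes, was the only member past 2-fold the same way in both libraries, at 82.4 against 382 CPM and 98.9 against 339. It was 1 of 18 genes, beside 3.33% of all genes lower. Between libraries 2 of 20 genes were 2-fold or more higher in the AHRmKO library and 1 lower, beside 7.81% and 13.9% of all genes, so the counts say nothing particular about the list. The 2 were Gadd45a, a stress and denervation gene, at 41.3 and 122 CPM, and Scn4a, the adult muscle sodium channel, at 40.5 and 88.6. The 1 was Hdac9, another activity-linked repressor, at 247 and 113 CPM. Dok7, a Musk adaptor, stood at a log2 ratio of 0.998 (0.85 to 1.16), just under the 2-fold limit.

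The dystrophin complex ties the fibre's cytoskeleton to its matrix. Dmd, one of the genes of the rule, stood at 7245 and 3551 CPM in the set and 9042 and 7854 in low-Myh3 nuclei. Its foetal relative Utrn, utrophin, stood at 1266 and 1095 CPM against 713 and 420. Sntb1, a syntrophin, was 2-fold or more higher in the set of both libraries (1586 against 789 CPM, and 1092 against 402), and Nos1, the nitric oxide synthase that binds the adult complex, was lower (43.1 against 132, and 14.0 against 233), as was the laminin gene Lama5. Of 16 genes counted against low-Myh3 nuclei, these were 1 higher and 2 lower, beside 1.24% and 3.33% of all genes. The list's median log2 ratios in that comparison were 0.23 and 0.36. Between the libraries the list's median was -0.19 over 16 genes.

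Calcium handling genes of the set included early isoforms. Casq2, the cardiac form of the calcium store protein calsequestrin, stood at 617 and 504 CPM against 290 and 47.9 in low-Myh3 nuclei and was the member past 2-fold in both libraries. Its skeletal relative Casq1 stood at 171 and 143 CPM against 169 and 151. Ryr3, the ryanodine receptor of immature muscle, stood at 831 and 510 CPM against 510 and 145, and Atp2a2, the slow and embryonic calcium pump, at 490 and 334 against 321 and 129. The adult fast pump Atp2a1 stood at 1027 and 1751 CPM against 1316 and 3130. In both libraries the early form thus lay above its low-Myh3 level and the adult pump below it. The whole list also lay above low-Myh3 nuclei, with median log2 ratios of 0.42 and 0.85 over 16 genes. Of these, 1 was higher in both libraries and 0 lower, beside 1.24% and 3.33% of all genes. Ryr1, the main release channel, stood at 1841 and 3745 CPM, a log2 ratio between libraries of 1.02 (0.99 to 1.06), which lay between 0.93 and 1.38 under the alternatives. Cacna2d1, a channel subunit, stood at 2269 and 1114 CPM, and Sln, the pump inhibitor sarcolipin, at 15.5 and 6.44.

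Among 23 transcription factors counted, the median log2 ratio between the libraries was -0.38, with none 2-fold or more higher in the AHRmKO library and 3 lower, a share near the 13.9% of all genes that were lower. The 3 were Mef2c, a factor of fibre maturation, at 2057 and 935 CPM, Esrrg, an oestrogen-related receptor of oxidative metabolism, at 377 and 166, and Myf6, the myogenic factor of mature fibres, at 18.0 and 7.59. Myod1 stood at 124 and 173 CPM. Against low-Myh3 nuclei, Myf6 was lower in both libraries (18.0 against 158 CPM, and 7.59 against 22.1) and so was Prox1, a factor of slow and maturing fibres. Of 23 genes counted, these were 2 lower by 2-fold or more and 0 higher, beside 3.33% and 1.24% of all genes. Mef2c was on the other side, at 1542 and 832 CPM in low-Myh3 nuclei.

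Imprinted genes gave 3 of the 14 members counted against low-Myh3 nuclei as higher in both libraries, beside 1.24% of all genes. All 3 are maternally expressed non-coding RNAs of 1 locus on chromosome 12: Meg3 (109541001 to 109571726, plus strand) at 476 against 187 CPM and 563 against 130, Rian (109603940 to 109661716, plus strand) at 225 against 47.8 and 166 against 41.3, and Mirg at 33.2 against 4.32 and 59.6 against 10.6. Meg3 was detected in 19.7% and 22.8% of nuclei of the set (15.3% and 18.2% after thinning, against 5.66% and 5.05% of leukocyte nuclei), so a minority of nuclei carried its summed level. In fusing nuclei it stood at 452 and 330 CPM. H19, a maternally expressed RNA of growing muscle, stood at 445 and 774 CPM against 303 and 223, and Igf2, the growth factor gene beside it, at 175 and 154 against 98.5 and 12.2. Between the libraries Peg3, a paternally expressed zinc finger gene, was past 2-fold higher in the AHRmKO library (604 and 1479 CPM), and Igf2r, the receptor that clears IGF2, was lower (609 and 150). Igf2r overlaps the more abundant antisense RNA Airn, so its counts are uncertain. Rtl1 (18.9 CPM against 2 UMIs, log2 ratio -4.34, -8.42 to -3.48), Mest (136 and 57.1) and Igf2bp3 (12.3 and 2.99) were the other members lower by 2-fold or more. In all 1 of 16 was higher and 4 were lower, beside 7.81% and 13.9% of all genes.

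Ubiquitin and atrophy genes lay lower in the set than in low-Myh3 nuclei. Of 21 counted, 9 were 2-fold or more lower in both libraries and none higher, beside 3.33% of all genes lower. Fbxo32, the atrophy ubiquitin ligase atrogin 1, stood at 70.2 CPM against 1147 in the AHRfl/fl library and at 28.3 against 805 in the other. Trim63, the ligase MuRF1, stood at 201 against 1502 and at 212 against 1170. Foxo1, the transcription factor that drives both, stood at 74.6 against 444 and at 60.7 against 625. The other 6 were Foxo3, Fbxo31, Fbxo40, Bnip3 and the metallothioneins Mt1 and Mt2. The low level was shared with fusing nuclei, where the list summed to 2946 and 2443 CPM against 3064 and 2329 in the set. Of 19 genes counted against fusing nuclei, 0 passed 2-fold in both libraries, beside 0.0637% of all genes higher and 0.0319% lower. Leukocyte nuclei held Fbxo32 at 70.2 and 146 CPM, so the level of the set was at or below that of nuclei of another cell type, while Trim63 in leukocyte nuclei was 21.2 and 11.8 CPM. Within the set Fbxo32 had a log2 ratio between libraries of -1.30 (-1.61 to -1.02), which turned to 0.26 at a Myh3 limit of 0.2%. Trim63 stood at 0.08.

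Genes of hypoxia and fuel use were compared with low-Myh3 nuclei by list. Of 12 hypoxia genes counted, 4 were 2-fold or more lower than in low-Myh3 nuclei of both libraries, beside 3.33% of all genes: Pfkfb3 (14.6 against 127 CPM, and 18.6 against 118) and Pfkfb4, which set the pace of glycolysis, Bhlhe40 and Ddit4. Of 18 glycolysis and glycogen genes, Hk2, hexokinase 2, was lower (19.5 against 159, and 9.66 against 207) and so was Phka1, a phosphorylase kinase subunit, beside 3.33% of all genes. The list's medians were -0.03 and -0.31. The 38 respiratory chain genes counted had none past 2-fold in both libraries, beside 1.24% of all genes higher and 3.33% lower, so this count says little. Between the libraries the respiratory list's median log2 ratio was -0.93 over 39 genes. Of these, 19 were lower by 2-fold or more and none higher, beside 13.9% and 7.81% of all genes. Cox4i1, a subunit of complex IV, stood at 170 and 43.5 CPM in the set, 180 and 29.2 in leukocyte nuclei, and 1127 and 94.6 in barcodes of 200 to under 500 UMIs. The list's median ratio was -1.78 in leukocyte nuclei and -2.79 in those barcodes. The set, leukocyte nuclei and near-empty droplets thus differed the same way between the libraries, and with free RNA subtracted the list's median in the set was 1.48. Subtracted counts below 0 were set to 0, so the size of that median is uncertain.

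Ahr itself, the gene that the design targets (chromosome 12, 35497974 to 35535038, minus strand), stood at 39.0 CPM (34.4 to 44.1, 256 UMIs) in the set of the AHRfl/fl library and at 35.4 CPM (30.1 to 41.5, 154 UMIs) in the AHRmKO library. The log2 ratio was -0.14 (-0.44 to 0.16), so the levels did not differ beyond counting error. Counts per gene do not show which exon a molecule came from, so they cannot check the deletion. Ahr lay above low-Myh3 nuclei (14.1 and 14.9 CPM) by 2-fold or more in both libraries and near leukocyte nuclei (30.7 and 36.0). Against low-Myh3 nuclei it was 1 of 6 genes of the AHR list counted, beside 1.24% of all genes higher. Arnt, its partner, stood at 158 and 113 CPM. Of the receptor's target genes, Tiparp stood at 71.1 and 47.4 CPM, Cyp1b1 at 17 and 1 UMIs, Nqo1 at 8 and 2 UMIs, Ahrr at 1 and 0 UMIs, and Cyp1a1 was not detected. None of the 6 members of the list counted passed 2-fold between the libraries, beside 7.81% of all genes higher and 13.9% lower. With 6 genes this count says little about the list.

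Secreted signals and growth ligands were mostly low. Vegfa, the endothelial growth factor, stood at 21.6 and 35.9 CPM, a log2 ratio of 0.72 (0.39 to 1.07), against 48.7 and 540 in low-Myh3 nuclei, and was lower in the set by 2-fold or more in both libraries. Its ratio between libraries was 0.05 without nuclei holding other-type markers. Vegfd, another family member, was also lower than in low-Myh3 nuclei. Of 10 genes of the ligand list counted there, these were 2 lower and 0 higher, beside 3.33% and 1.24% of all genes. Fgf13, an intracellular member of the FGF family, stood at 1906 and 860 CPM. Nrg1, a ligand of ERBB receptors (63.8 and 5.98 CPM), Wnt4 (21.8 and 1.15) and Angpt2, an angiopoietin (51.0 and 5.06), were lower in the AHRmKO library, and they were lower in leukocyte nuclei too (18.4 and 5.21, 10.1 and 1.94, 62.7 and 6.84). Angpt2 overlaps the more abundant Mcph1 on the other strand and is uncertain. Tgfb3, a transforming growth factor, stood at 54.8 and 125 CPM and Gdf11 at 5.03 and 10.8, both 2-fold or more higher in the AHRmKO library. They were 2 of 12 genes of their list counted, beside 7.81% of all genes higher. The inhibitor Fst stood at 5.33 and 5.06.

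Genes chosen by the size of their difference from low-Myh3 nuclei in both libraries extended these lists. The 10 that lay highest above low-Myh3 nuclei in both libraries, among genes at 100 CPM or more, were Rian, Ephb2, Meg3, Srgap1, Npnt, Dclk1, Adamts14, Ppm1e, Otog and Mtcl1. Dclk1, a microtubule-binding kinase, stood at 7488 against 3154 CPM in the AHRfl/fl library and 5267 against 989 in the other. Npnt, nephronectin, a matrix ligand of integrins, stood at 360 against 148 and 325 against 38.0, and Ephb2, an ephrin receptor, at 156 against 47.5 and 188 against 25.1. The 10 lowest were Fbxo32, Vldlr, Aldh1a1, Ptprg, Lpin1, Hk2, Fbxo40, C2cd2, Eef2k and Lncpint. Vldlr, a lipoprotein receptor, stood at 11.9 against 168 and 11.5 against 360, and Lpin1, a phosphatidate phosphatase of lipid synthesis, at 24.1 against 196 and 26.5 against 536. With comparison nuclei limited to under 0.05% Myh3, a choice made after seeing the data, 436 genes were higher in both libraries in place of 121, and 382 lower in place of 326. With the Myh3 limit moved to 0.2%, 24 genes were higher in both, and at 0.5%, 41. Nuclei under the moved limit then joined the comparison group, so the low-Myh3 nuclei were not the same.

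Few genes separated the set from fusing nuclei. The limit between them is a number of UMIs, so depth takes part in it, and fusing nuclei were deeper, with medians of 5565 and 5568 UMIs against 4573 and 3822. Of 9419 genes counted, 6 (0.0637%) were 2-fold or more higher in the set in both libraries and 3 (0.0319%) lower. The 6 were Whrn, Fgfrl1, Gm47719, Mpp3, Myoz1 and Grin2a and the 3 were Scrn1, A230057D06Rik and Myo16, named after their values were seen, and all lay under 100 CPM in the set. Myoz1, a Z-disc protein of fast fibres, stood at 81.0 against 37.7 CPM and 51.8 against 21.3. Among genes at 100 CPM or more, those lying furthest above fusing nuclei in both libraries included Myh4 (597 against 401 CPM, and 1077 against 439), Myh1 (1046 against 718, and 1051 against 665), Mybpc1, a slow myosin binding protein (2668 against 1626, and 2021 against 1302), Zbtb16, a zinc finger factor (104 against 60.9, and 107 against 45.05), and Mlip, a nuclear envelope protein (186 against 93.9, and 103 against 61.8). Ppm1l, Limch1, Plce1, Rilpl1 and Lrmda completed the 10. The genes furthest below were Myo16, Olfml2b, Nol4, Kcnk13, Ust, Pak3, Elmo1, Dpp6, Spg21 and Adgrl3, with Dpp6, a potassium channel subunit, at 1132 against 1680 and 1558 against 2812. Neither Myh4 nor Myh1 passed 2-fold in both libraries. Limiting the set to nuclei with no UMI of Myog, Mymk or Mymx gave 32 genes higher and 24 lower.

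Nuclei of the set differed among themselves in adult myosin. Nuclei without a UMI of Myh4, Myh1 or Myh2 numbered 164 (12.3%) in the AHRfl/fl library and 223 (23.4%) in the other, and nuclei with 0.5% or more numbered 67 (5.04%) and 133 (14.0%). From the first to the last of these bins, Dmd went from 3493 to 9413 CPM in the AHRfl/fl library and from 1203 to 5974 in the other. Trdn, the triad protein triadin, went from 1082 to 3462 and from 544 to 2147, and Mybpc1 from 894 to 4588 and from 596 to 3389. Mef2c went from 1377 to 2612 and from 433 to 1143, and Meg3 from 84.0 to 817 and from 208 to 784. Runx1 went the other way, from 6252 to 2357 and from 7299 to 3277, and so did Tnnt2, from 756 to 371 and from 1045 to 582. Dmd and Trdn are genes of the rule, so their values are a description. Of the genes outside the rule, Mybpc1, Mef2c and Meg3 were thus higher and Runx1 and Tnnt2 lower in the last bin than in the first, in both libraries. Myh3 was flat across these bins in the AHRfl/fl library (2097 to 2054 CPM) and went from 3619 to 4332 in the other. Chrng went from 383 to 297 CPM and from 619 to 699, in opposite directions. Median depth per bin lay between 3998.5 and 4808 UMIs and between 3387 and 4384.

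**Figure D3:**
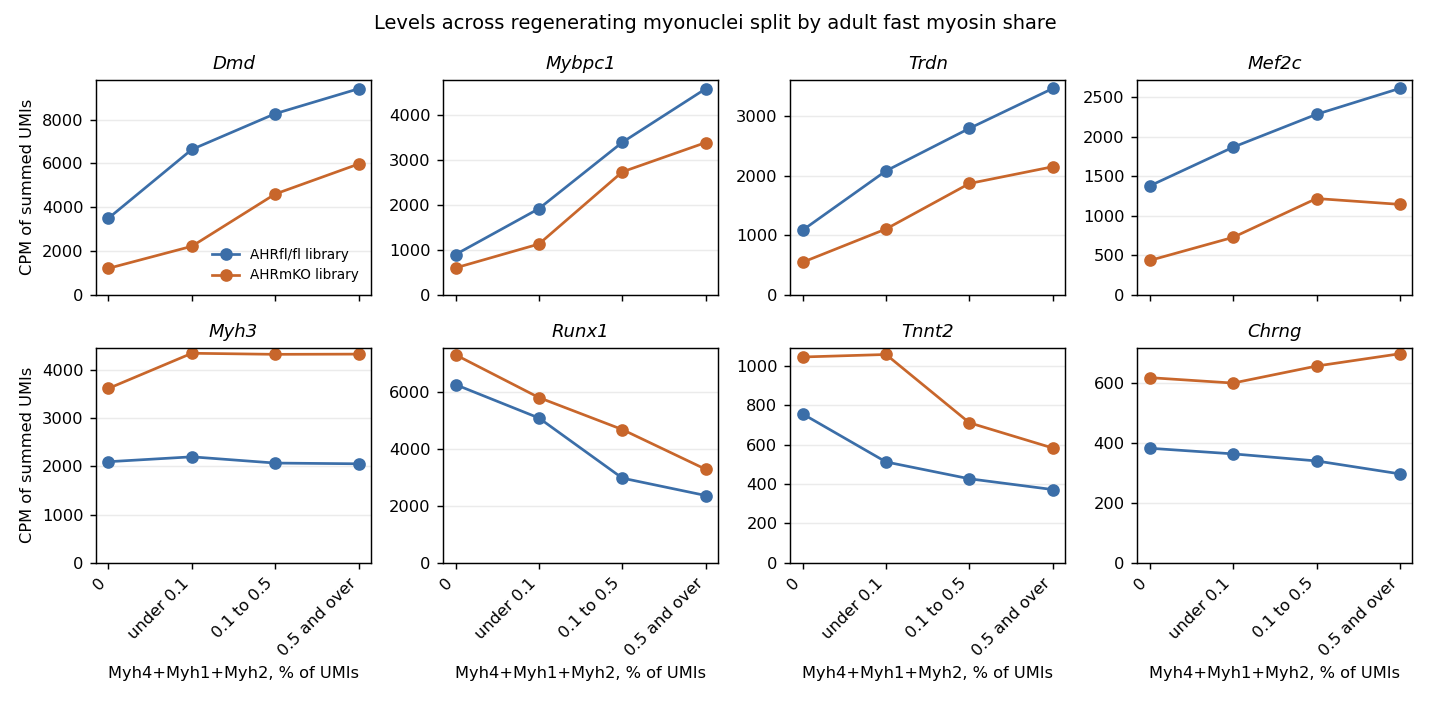
Levels of 8 genes (vertical axis, CPM of summed UMIs) in regenerating myonuclei split by their share of UMIs from Myh4, Myh1 and Myh2 (horizontal axis, percent), with 1 line per library. Dmd, Mybpc1, Trdn and Mef2c were higher and Runx1 and Tnnt2 lower in the 0.5% and over bin than in the 0 bin in both libraries.

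Splitting by Myh3 share instead gave 698, 609, 21 and 1 nuclei in the AHRfl/fl library at 0.1 to under 0.2%, 0.2 to under 0.5%, 0.5 to under 1% and 1% or more, and 145, 490, 287 and 29 in the other. In the AHRmKO library, Myh8 went from 443 to 1574 CPM and Actc1 from 251 to 792 over these bins, Ttn from 37172 to 67616 and Chrng from 451 to 831. Dmd went from 3739 to 3264 CPM by summed counts, while over single nuclei of that library its Spearman's rho with Myh3 was 0.13. In the AHRfl/fl library the first 3 bins held Myh8 at 775, 869 and 1437 CPM, Actc1 at 375, 438 and 872, Ttn at 16718, 18449 and 23953 and Chrng at 319, 387 and 467. Myh8, Actc1 and Chrng were thus higher in bins of higher Myh3 in both libraries, over 4 bins in one and 3 in the other. The third AHRfl/fl bin rests on 71 Actc1 and 38 Chrng UMIs. Over those 3 bins leukocyte markers summed to 1209, 1116 and 1646 CPM and adult fast genes to 8118, 8295 and 11694. In the AHRmKO library these went from 330 to 235 and from 6165 to 8533. From first to last bin, median depth went from 4784 to 3459 and from 3973 to 3248 UMIs. The part of free RNA was not tested. Myh3 and Ttn are genes of the rule, and the split is a description. Over thinned nuclei, Spearman's rho of Myh3 with Myh8 was 0.25 in the 951 nuclei of the AHRmKO library and 0.06 in the 1329 of the other. Dmd and Myh4 had a rho of 0.48 and 0.26, and Ttn and Neb 0.48 and 0.37. These nuclei share a library, a depth and free RNA, and the correlations are a description.

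Some of the genes with the largest ratios between the libraries differed the same way in other nuclei and some did not. The 12 highest in the AHRmKO library, among genes at 100 CPM or more, were Fos, Camk1d, Msln, Lars2, Isyna1, Carns1, Tcirg1, Mamstr, Nes, Prkag3, Cbfa2t3 and Emc1. Gm42418, left out of this ranking as a predicted gene, stood at 2817 to 3224 CPM over the adult myosin bins of the AHRfl/fl library. It stood at 26850 to 34632 CPM in those of the AHRmKO library. Malat1 stood at 54890 to 76878 and at 23345 to 43764 CPM. Scaling without Gm42418, AY036118 and Malat1 took 0 of 76 named ratios of 2-fold or more between the libraries under 2-fold. Fos, an early response factor, stood at 8.22 and 102 CPM, and in leukocyte nuclei at 25.3 and 306. Of the 15 early response genes counted, Fos among them, 6 were 2-fold or more higher in the AHRmKO library, beside 7.81% of all genes, and none lower. The list's median log2 ratio was 0.39 in the set and 1.49 in leukocyte nuclei. Camk1d and Lars2 were also higher in leukocyte nuclei (1257 and 3835, and 150 and 649 CPM) and in barcodes of 200 to under 500 UMIs. Prkag3, the fast-muscle gamma subunit of AMP-activated kinase, stood at 473 and 1828 CPM, against 21.8 and 33.8 in leukocyte nuclei and 320 and 405 in low-Myh3 nuclei. Mamstr, a coactivator of MEF2 factors, stood at 155 and 625 CPM, against 21.8 and 30.7 in leukocyte nuclei, Cbfa2t3, a corepressor, at 167 and 633 against 44.0 and 49.3, and Nes, the intermediate filament nestin of regenerating muscle, at 136 and 547 against 68.7 and 23.3. These 4 genes thus lay 2-fold or more higher in the set while leukocyte nuclei differed by under 2-fold upward or were lower. Of all 901 genes higher in the set, 446 of 771 counted in low-Myh3 nuclei (57.8%) and 444 of 780 in fusing nuclei (56.9%) passed 2-fold the same way. In leukocyte nuclei 163 of 859 (18.98%) did so. The share of all genes past 2-fold within each of these groups was not taken, so whether these shares exceed it is not known.

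The 12 lowest in the AHRmKO library were Dnajc19, Sorbs2os, Lrrc4, Lysmd4, Bfsp2, Prr33, Flrt1, Apoe, B2m, Gsdme, S100a6 and Fgfr2. Of these, 10 lie across from a gene of the other strand, which makes them uncertain. Dnajc19 (279 and 2.30 CPM) lies across from Fxr1 and Lysmd4 (1207 and 16.6) across from Mef2a. Of the 1600 genes lower by 2-fold or more, 663 (41.4%) lie across from a more abundant gene of the opposite strand, against 1500 of all 11538 counted (13%). Whether the counting used the strand of a molecule is not given in the sources used here, nor whether both libraries were counted with the same settings, and their part in every ratio between the libraries was not tested. Elsewhere among the genes named, Angpt2, Gapdh, Igf2bp3, Igf2r and Mest overlap a more abundant gene on the other strand. The following overlap a less abundant one and are uncertain to that extent: Adgrl3, Ahr, Aldh1a1, Atp2a1, Bhlhe40, Bnip3, Cacna2d1, Carns1, Casq1, Cbfa2t3, Chrne, Ckm, Cox4i1, Dclk1, Dmd, Dpp6, Dysf, Eef2k, Elmo1, Esrrg, Fbxo32, Foxo1, Fst, Gadd45a, Gm47719, Hk2, Igf2, Kirrel3, Limch1, Lncpint, Lrmda, Mef2a, Mt2, Mybpc2, Mybph, Myh1, Myh2, Myh7, Myl4, Ncam1, Neb, Nos1, Pfkfb3, Plce1, Prox1, Ptprg, Runx1, Ryr1, Ryr3, Scrn1, Spg21, Tgfb3, Trdn and Ttn. Apoe, apolipoprotein E, and S100a6, a calcium-binding protein, overlap none. Apoe stood at 987 and 78.7 CPM in the set, 3107 and 471 in leukocyte nuclei and 8436 and 465 in barcodes of 200 to under 500 UMIs. Of the 1600 genes, 1067 of 1520 counted (70.2%) were also 2-fold or more lower in leukocyte nuclei. In low-Myh3 nuclei 868 of 1181 (73.5%) were, and in fusing nuclei 1136 of 1397 (81.3%). Here too the share of all genes within each group was not taken.

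**Figure D4:**
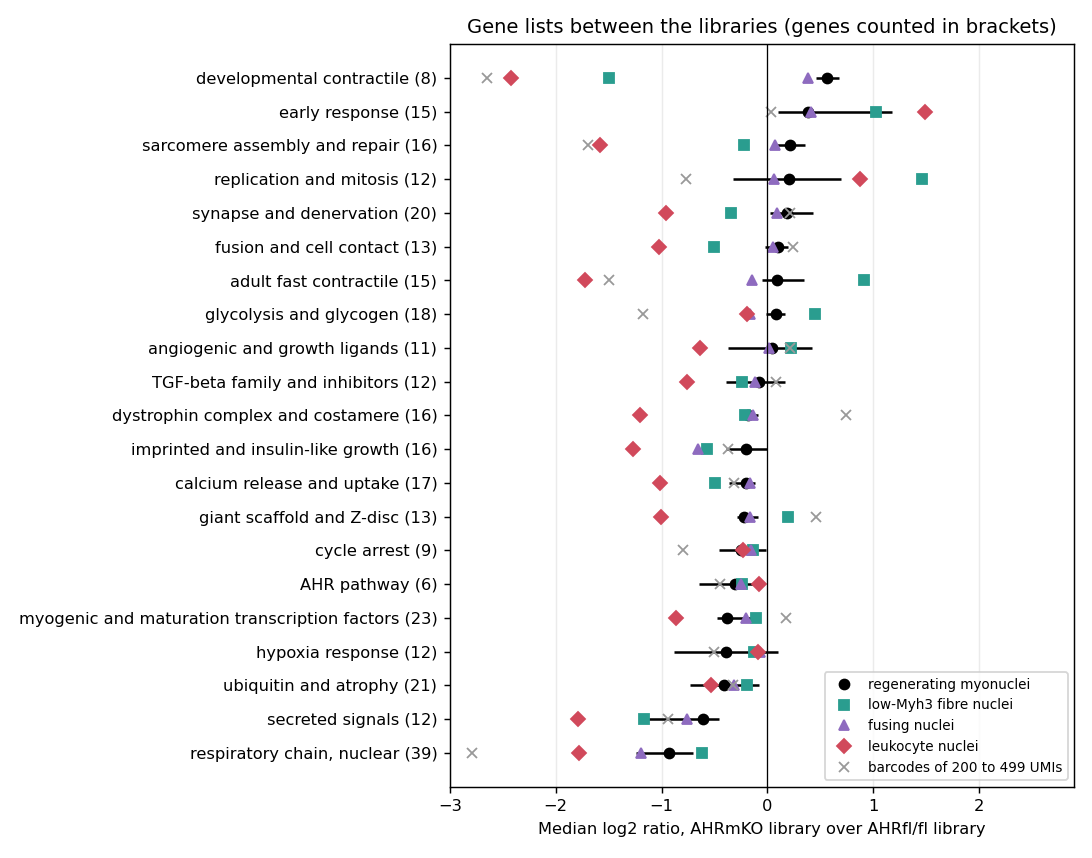
Median log2 ratio, AHRmKO library over AHRfl/fl library (horizontal axis), for 21 gene lists (vertical axis, genes counted in brackets) in regenerating myonuclei (black, with lines between the medians of the genes' counting bounds) and in 4 other kinds of barcode. Developmental contractile genes stood at 0.57 in regenerating and -1.49 in low-Myh3 fibre nuclei, and respiratory chain genes lay below 0 in all 5 kinds.

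The other lists are given by their median log2 ratio between the libraries in the set. The fusion and cell contact list had a median of 0.10 over 13 genes, with Kirrel3 lower, and Dysf, the membrane repair protein dysferlin, at 961 and 985 CPM. Replication and mitosis genes had a median of 0.20 over 12 genes and cycle arrest genes -0.25 over 9, with Cdkn1a at 120 and 105 CPM. Mki67, the proliferation marker, stood at 21.6 and 49.2 CPM in the set against 107 and 350 in leukocyte nuclei. The glycolysis list had a median of 0.08 over 18 genes, with Pkm higher (360 and 790 CPM) and Gapdh lower (217 and 65.6) in the AHRmKO library. Gapdh overlaps a more abundant gene of the other strand, and with free RNA subtracted its log2 ratio turned from -1.72 to 6.599. Subtracted counts below 0 were set to 0, so the size of that second ratio can rest on the 0.5 CPM added and is not a measured fold. The secreted signal list had a median of -0.60 over 12 genes, with 5 lower by 2-fold or more and none higher, beside 13.9% and 7.81% of all genes. The ligand list had a median of 0.04 over 11, the transforming growth factor list -0.08 over 12, the hypoxia list -0.39 over 12, the atrophy list -0.41 over 21, the calcium list -0.20 over 17, the imprinted list -0.20 over 16 and the AHR list -0.31 over 6. The sarcomere assembly list had a median of 0.21 over 16 genes, the scaffold list -0.22 over 13 and the synapse list 0.19 over 20. Some of these medians turned sign under another setting. At a Myh3 limit of 0.5% the scaffold list stood at 0.21 and the calcium list at 0.19. With free RNA subtracted the imprinted list stood at 0.16 and cycle arrest at 0.94. Without nuclei holding other-type markers, replication and mitosis stood at -0.21 and the calcium list at 0.0078. The hypoxia list stood at 0.085 with no UMI of Myog, Mymk or Mymx, the transforming growth factor list at 0.012 at 4000 UMIs or more, and the ligand list between -0.12 and -0.0087 under 4 settings.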

How the data were processed

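Nuclear RNA from tibialis anterior was measured in 2 single-nucleus libraries, 1 per genotype, made with 10x Chromium 3' chemistry per the labels. The deposited values are raw UMI counts per gene and barcode, not normalized, made by the authors with Cell Ranger 7.0.1 on mm10, per the submitters' processing notes, while both matrix headers name Cell Ranger 4. Whether introns and strand entered the counting, and the annotation, are not given in the sources used here.

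Counts of the selected nuclei were summed per library and scaled to counts per 1000000 UMIs (CPM). Ratios are log2 of CPM plus 0.5 and understate differences of low genes. Genes with 50 or more UMIs were counted, and 2-fold or more was called. With 1 library per group no test was run: shares have 95% Clopper-Pearson intervals, CPM exact Poisson intervals and ratios exact conditional binomial intervals, covering counting error only. Members and lists (21 biological, 9 of markers) were chosen with earlier results of these data known. Genes were named by rule: the 15 highest by level, the 12 highest and 12 lowest ratios between libraries at 100 CPM or more in the higher library, the 10 highest and 10 lowest against low-Myh3 and against fusing nuclei at 100 CPM or more in the higher group of both libraries, the 3 most abundant and the highest and lowest ratio of each list, and a set list. The rankings by level, between libraries and against other nuclei left out mitochondrial, haemoglobin, ribosomal protein and predicted genes. Predicted genes here are names of Gm plus digits, names ending in Rik and clone names. Names shared by more than 1 entry were left out too. Other list members named were singled out after their values were seen. Doublets were kept, and Scrublet (0.4% expected per 1000 nuclei) served only as an alternative. In all, 15 other settings were tried, and 3 more were added after seeing the data. Positions and overlaps are from the annotation of GRCm38 and promoters from RefSeq for GRCm38.p6. Scripts were tested on simulated data and used python 3.11.15, numpy 2.4.6, scipy 1.17.1, pandas 2.3.3, scanpy 1.11.5 and matplotlib 3.10.9.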

Additional observations from a re-analysis of the deposited data

Results flagged for a closer look

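The developmental contractile genes had opposite signs between the libraries in different fibre nuclei. Their median log2 ratio, AHRmKO over AHRfl/fl, was 0.57 in regenerating myonuclei and -1.49 in fibre nuclei low in Myh3, over 8 and 7 genes with enough UMIs. In regenerating myonuclei it was -0.14 at a Myh3 limit of 0.5%. In leukocyte nuclei it was -2.42 and in near-empty droplets -2.65, the same sign as in low-Myh3 nuclei. The difference was not tested, since each genotype has 1 library. Both groups were cut at the same Myh3 limit, and Myh8 and Actc1 of the list were higher in bins of higher Myh3. The median Myh3 share was 0.194% in the AHRfl/fl library and 0.395% in the other in regenerating myonuclei. In low-Myh3 nuclei it was 0.0485% and 0%. The part of the Myh3 cut in these signs was not tested. Low-Myh3 nuclei of the AHRfl/fl library held Myh3 at 490 CPM and those of the other at 138, where near-empty droplets (200 to under 500 UMIs) held 2912 and 427, and the part of free RNA was not tested.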

How the results depend on the processing

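No paired analysis was possible because each genotype has 1 library. Counting error is the one error the intervals cover, and genes under 50 UMIs were not counted. The share of nuclei in the set was 7.82% in the AHRfl/fl library and 14.3% in the other. It was 10.8% in the first at 4000 UMIs or more and 11.8% in the second at 1000 or more. It was 3.71% and 12.2% at a Myh3 limit of 0.2%, 0.130% and 4.77% at 0.5%, 1.88% and 5.43% with no UMI of Myog, Mymk or Mymx, and 0.489% and 8.401% without nuclei holding 3 or more UMIs of other-type markers. A fibre gene limit of 2% gave 6.85% in the AHRfl/fl library, and the denominator of fibre nuclei, added after seeing the data, 28.9% and 32.6%.

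Genes higher by 2-fold or more in the AHRmKO library numbered 901, and 1769 with free RNA subtracted, 1528 when 1 UMI sufficed and 497 when 200 were required. Genes lower numbered 1600, and 428 at Myh3 of 0.5%, 741 with no UMI of the fusion genes, 523 without nuclei holding other-type markers, 3380 when 1 UMI sufficed, 694 at 200 UMIs, and 937 without genes under a more abundant opposite-strand gene, an alternative added after seeing the data. Genes higher than in low-Myh3 nuclei of both libraries numbered 121, and 24 at Myh3 of 0.2%, 41 at 0.5%, 205 at fibre genes of 2%, 194 with no UMI of the fusion genes, 211 with free RNA subtracted, 289 at 1 UMI, 61 at 200 UMIs and 436 against nuclei under 0.05% Myh3. Genes lower numbered 326, and 548 at Myh3 of 0.5%, 651 at 1 UMI and 179 at 200 UMIs. Changed Myh3 and fibre gene limits applied to the comparison nuclei too. At Myh3 of 0.2% or 0.5%, low-Myh3 nuclei are therefore those under that limit, former nuclei of the set included. The limit on other-type markers was applied to the set alone, and the comparison nuclei kept theirs. Genes higher than in fusing nuclei numbered 6, and 2 at Myh3 of 0.2%, 0 at 0.5%, 2 at fibre genes of 2%, 32 with no UMI of the fusion genes, 11 without nuclei holding other-type markers, 22 with free RNA subtracted, 72 at 1 UMI and 1 at 200 UMIs. Genes lower numbered 3, and 1 at Myh3 of 0.2%, 0 at 0.5%, 24 with no UMI of the fusion genes, 19 without nuclei holding other-type markers, 0 after thinning, 1 with 2 CPM added, 34 at 1 UMI and 1 at 200 UMIs.

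Of the named genes' ratios between the libraries, 33 of 143 changed sign at Myh3 of 0.5%, 23 of 179 with free RNA subtracted, 20 of 169 without nuclei holding other-type markers, 14 of 185 with no UMI of the fusion genes and 12 of 197 at Myh3 of 0.2%. The ratios of 2-fold or more that changed sign, those against other nuclei included, are as follows. The Myh3 limit of 0.5% left 22 nuclei in the AHRfl/fl library. There, Rian over fibre nuclei under 0.5% Myh3 in that library was -0.0808, and Ppm1l over fusing nuclei was -2.09. At that limit the ratios between libraries were -0.39 for Spg21, -0.24 for Myl6b and -0.65 for Egr1. Fbxo32 was 0.26 at Myh3 of 0.2%. With free RNA subtracted, Atp5b was 7.79, Gapdh 6.599 and Sparc 2.48. Subtracted counts below 0 were set to 0, so the sizes of these 3 ratios can rest on the 0.5 CPM added. The causes were not tested. The sign of the list median changed for 4 of 21 lists at Myh3 of 0.5%, for 3 with free RNA subtracted, for 2 without nuclei holding other-type markers and for at most 1 under each other alternative.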
